A study of Homo sapiens with 6 samples.

Results

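Aminoacyl-tRNA synthetases are the enzymes that load each amino acid onto its transfer RNA. The genes described here are 37 human synthetase genes, taken as every model on chromosomes 1 to 22 and X whose gene name is on the list, and all 37 were found among the 25088 gene names on those chromosomes. The RNA came from EndoC-βH1 cells, an established line of human pancreatic beta cells, here carrying a lentiviral, doxycycline-inducible short hairpin RNA aimed at the promoter of INS, the insulin gene. The INS-KD group has 3 libraries from cells given doxycycline at 1 mg/mL for 7 days, and the Negative Control group has 3 libraries from the same transduced cells with no doxycycline. Both groups carry the hairpin construct, and no group received doxycycline without the hairpin.

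The data examined were 1 merged transcript assembly for all 6 libraries, with 55083 models and no abundance. Depth is unknown, no level of any gene can be given for INS-KD or Negative Control cells, and beta cell markers could not be used to check the label. Of the models, 49846 match a RefSeq transcript exactly. The other 5237 are joined models, which share splice junctions with a RefSeq transcript but string introns together in a way that it does not. Such an assembly can carry RefSeq transcripts in from the annotation, so an exact match does not show that the transcript was seen in these cells. The values below are therefore properties of gene models, and a comparison among them is between genes, not between the groups.

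A synthetase recognises its amino acid and its tRNA and joins them in a reaction that uses ATP. The enzymes fall into class I and class II, which have unrelated catalytic folds, and mitochondria have their own set, made from nuclear genes and imported. Several cytosolic enzymes sit in the multi-synthetase complex. Beta cells spend much of their protein synthesis on proinsulin, and cells short of amino acids raise many cytosolic synthetase genes through the transcription factor ATF4. Of the 37 genes, 18 were taken as cytosolic, 17, whose names end in 2, as mitochondrial, and GARS (glycine) and KARS (lysine) as dual-use, since 1 gene makes the enzyme for both compartments. TARSL2 fell among the mitochondrial genes by its name, although it is known to encode a threonyl-tRNA synthetase of the cytosol. The medians for mitochondrial exon number are given with and without it.

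The 37 genes had 75 models, of which 73 were RefSeq transcripts and 2 were joined models. There were 22 genes with 1 RefSeq transcript. The 18 cytosolic genes had 41 RefSeq transcripts and the 17 mitochondrial genes had 29. HARS had the most transcripts, with 7, followed by TARS with 6 and CARS and TARS2 with 5 each. More than 1 RefSeq transcript was listed for 15 of 37 synthetase genes (40.5%, exact 95% interval 24.8 to 57.9%), against 37.2% of all gene names with a RefSeq transcript. That is a share near the background.

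**Figure D1:**
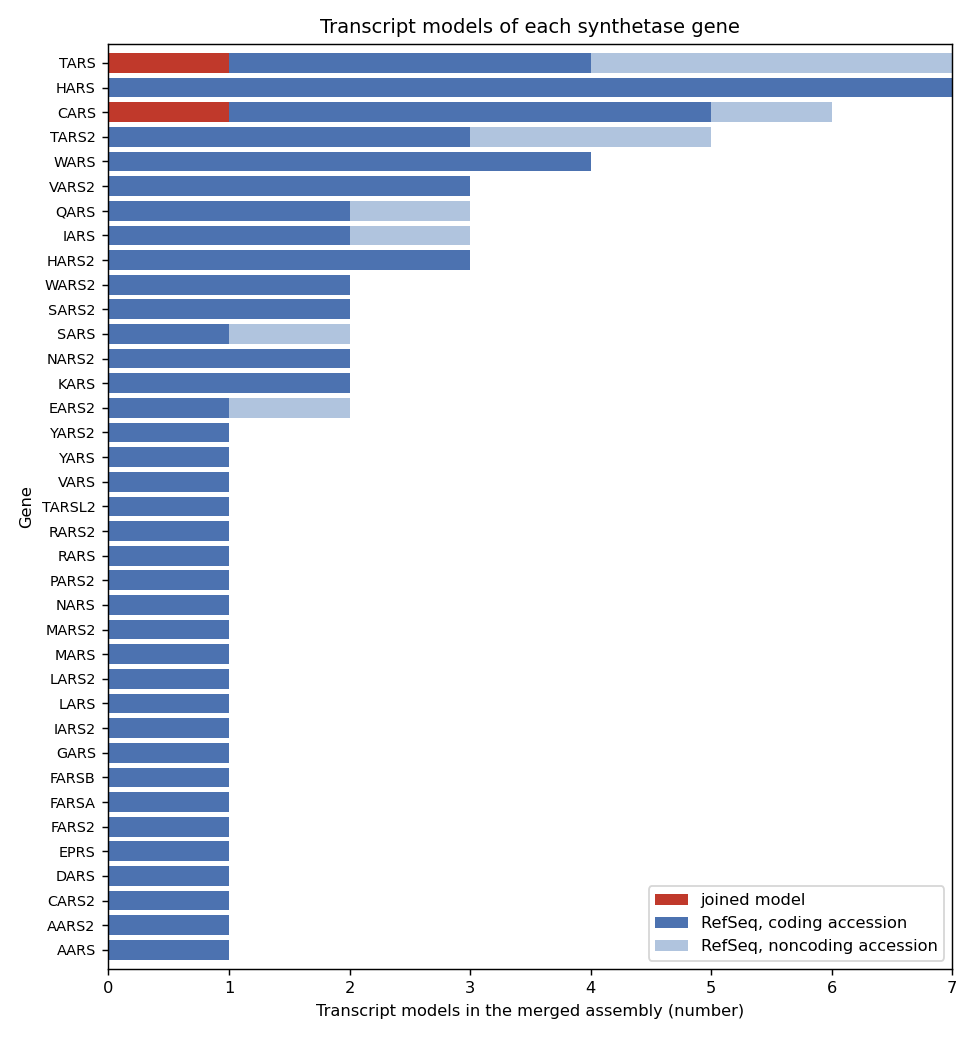
Number of transcript models (horizontal axis) of each of the 37 synthetase genes, split by colour into joined models, coding RefSeq transcripts and noncoding RefSeq transcripts. HARS and TARS have 7 models each, and the 2 joined models are at CARS and TARS.

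The dual-use lysine gene shows how 1 gene can serve both compartments. KARS, on chromosome 16, had 2 coding transcripts from 1 start site group. The longer has 15 exons, 2193 spliced bases and a reading frame of 625 codons, and the shorter has 14 exons, 2013 bases and 597 codons. They differ by an exon of 180 bases, the second of the longer transcript, and the 2 frames begin at different ATG codons, in the included exon of the longer transcript and in the first exon of the shorter. Each frame has the length that GENCODE annotates, and each has its own coding-sequence tag in the deposited file. The longer form is known to carry the mitochondrial targeting sequence. The coding parts of the exons that hold the 2 starts are printed here to show the alternative beginnings, with the start codon in capitals (GRCh37, minus strand, chr16:75678181-75678326 for the included exon and chr16:75681476-75681537 for the first exon).
KARS included exon, coding part: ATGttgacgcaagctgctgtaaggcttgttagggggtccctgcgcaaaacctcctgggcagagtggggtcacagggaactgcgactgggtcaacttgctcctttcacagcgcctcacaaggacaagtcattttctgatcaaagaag
KARS first exon, coding part: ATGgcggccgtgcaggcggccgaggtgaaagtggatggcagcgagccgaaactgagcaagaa

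GARS, on chromosome 7, had a different arrangement, with 1 transcript of 17 exons, 2749 bases and a frame of 739 codons. Its 2 enzyme forms are known to come from 2 start codons in 1 mRNA, which an assembly of exons cannot show. GARS also held the single AT-AC intron among the 635 distinct introns of the synthetase genes. That intron lies at chr7:30661117-30661932 on the plus strand and is 816 bases long. Its ends are printed because they carry the letters of the minor, U12-type intron class, with the first 8 bases, the stretch that resembles a branch site, and the final AC in capitals (chr7:30661117-30661136 and chr7:30661903-30661932).
GARS intron first bases: ATATCCTTtctggtcactcc
GARS intron last bases: gtagttttggaTTCCTTGACtacttcatAC

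Of the 635 introns of the synthetase genes, 627 (98.7%) began with GT and ended with AG, against 98.6% of the 218400 distinct RefSeq introns of the file. A further 6 (0.945%) were GC-AG, in AARS, HARS, SARS2, TARS, TARS2 and VARS, against 0.983% of all introns. AT-AC introns numbered 193 (0.0884%) in the whole file, and 125 of these (64.8%) begin with the same 8 letters, ATATCCTT, as the GARS intron. The remaining synthetase intron, of 706 bases in WARS2, reads GT-GG on the reference genome. The splice ends of the synthetase genes were thus close to those of all genes.

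The 2 joined models were at CARS, the cytosolic cysteinyl-tRNA synthetase, and at TARS, the cytosolic threonyl-tRNA synthetase. They make up 2 of 36 multi-exon synthetase genes (5.56%, exact 95% interval 0.68 to 18.7%), against 12.4% of the 21400 multi-exon gene names. No mitochondrial or dual-use synthetase gene had one. All 22 introns of the CARS model and all 20 of the TARS model occur in RefSeq transcripts of the same gene, each chain is a splice of 2 runs from different transcripts, and neither chain is in GENCODE.

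Genes with many RefSeq transcripts had joined models more often, and the synthetase genes are spread over that range. None of 21 multi-exon synthetase genes with 1 RefSeq transcript had a joined model (a count of 0 gives an exact upper bound of 16.1%), against 0.75% of 12135 gene names of that kind. None of 6 with 2 transcripts had one (upper bound 45.9%), against 6.03% of 4162. Of the 9 with at least 3 transcripts, 2 had one (22.2%, exact 95% interval 2.81 to 60%), against 45.5% of 5103. The background share lies inside the interval in each of these strata.

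CARS, on chromosome 11, had 5 RefSeq transcripts, 4 of them coding, with longest frames of 831, 809, 748 and 726 codons. The 831-codon form includes a 249-base exon that the 748-codon form lacks. The noncoding transcript has an exon 4 of 136 bases in place of 89. Its longest frame of 738 codons begins at base 411, downstream of base 85, the start used by the coding transcripts. GENCODE annotates a coding length of only 128 codons on its chain. The joined model has 23 exons and 2827 spliced bases. It combines that 136-base exon with a next-to-last exon of 92 bases that occurs in the 809-codon form, where the 831-codon form has 84 bases. The longest frame of the joined model is 716 codons from base 411, which is 93 codons fewer than the 809 of its tagged nearest transcript. No RefSeq transcript of CARS has the same frame, and the stop of this 716-codon frame lies 61 bases after the last junction. The first 4 exons of the joined model, of 109, 249, 92 and 136 bases, are those of the noncoding transcript. A frame from base 85 therefore stops in both after 128 codons, at a TGA within the capitals of exon 4. Both exons are printed because their pairing is what the joined model adds, with capitals for the bases that the shorter exon forms lack, 47 in exon 4 and 8 in the next-to-last exon (GRCh37, minus strand, chr11:3062126-3062261 and chr11:3023192-3023283).
CARS exon 4: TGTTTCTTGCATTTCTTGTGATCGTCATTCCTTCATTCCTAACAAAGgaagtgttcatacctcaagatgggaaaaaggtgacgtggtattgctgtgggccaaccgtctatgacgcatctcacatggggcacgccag
CARS next to last exon: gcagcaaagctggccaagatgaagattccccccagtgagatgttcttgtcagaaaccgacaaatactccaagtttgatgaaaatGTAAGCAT

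CARS lies 839712 bases from INS on chromosome 11, the gene at which the hairpin is aimed. The assembly holds no value that could show whether the joined model came from INS-KD or Negative Control libraries.

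TARS, on chromosome 5, had 6 RefSeq transcripts, 3 coding with frames of 756, 723 and 723 codons and 3 noncoding with 664, 619 and 602. The noncoding frames begin at bases 610, 433 and 514, against base 312 in the coding transcripts with the same first exon. GENCODE annotates coding lengths of only 56 and 131 codons on the chains with the 619- and 602-codon frames. First exons are of 2 kinds, a single exon of 368 bases or a pair of 96 and 98 bases that begins 80 bases upstream. The joined model has 21 exons and 2791 spliced bases. It pairs the split first exon with an additional exon of 99 bases that RefSeq has on a transcript with the 368-base first exon. Its longest frame is 756 codons, the same frame as its tagged nearest transcript of 20 exons, so the TARS model differs from the reference upstream of the coding sequence, whereas the CARS model differs within it. The additional exon, which sets the 756-codon frame apart from 723, is printed here (GRCh37, plus strand, chr5:33452446-33452544).
TARS additional exon: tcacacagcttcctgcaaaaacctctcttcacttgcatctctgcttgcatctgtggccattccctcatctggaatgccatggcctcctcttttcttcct

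**Figure D2:**
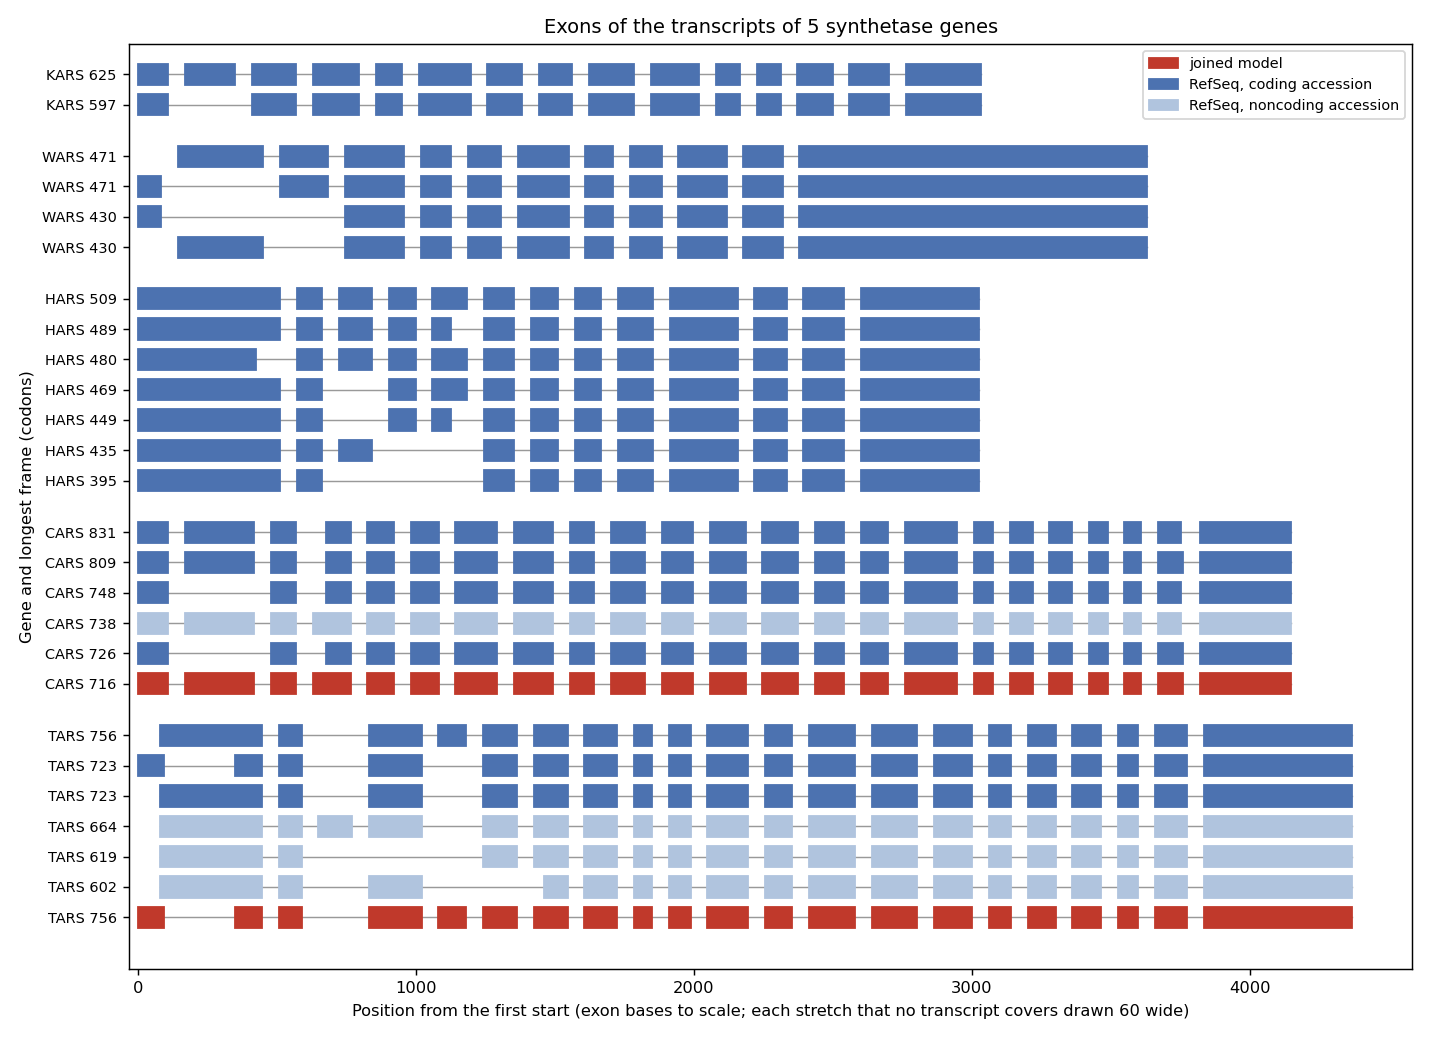
Exons of every RefSeq transcript and joined model of KARS, WARS, HARS, CARS and TARS, drawn from the first start with exons to scale and each intronic gap shortened, and named by gene and longest frame in codons. Red marks joined models, dark blue coding and light blue noncoding RefSeq transcripts. The CARS and TARS joined models each combine exon choices that different RefSeq transcripts of the gene hold apart.

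The cytosolic genes with several transcripts varied mainly at the 5′ end and in skipped exons. HARS, which charges histidine, had 7 coding transcripts, 7 coding-sequence tags and 1 start site group, with frames of 509, 489, 480, 469, 449, 435 and 395 codons. The transcripts skip exon 3 of 120 bases, exon 4 of 96 bases or exon 5 in different combinations, or use a 66-base form of exon 5, and the 480-codon form has a first exon of 426 bases in place of 513. The longest intron of HARS, 12839 bases, takes up 72% of its span of 17824 bases. It occurs only in the 395-codon form, where it runs across the skipped exons 3, 4 and 5.

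WARS, the cytosolic tryptophanyl-tRNA synthetase, had 4 coding transcripts in 2 start site groups 753 bases apart. Each group gives both frames, 471 codons with a 172-base exon and 430 codons without it. The shorter protein is known as mini-TrpRS, a form made in cells treated with interferon. First exons were 84 bases at the upstream start and 308 bases at the downstream start, and spliced lengths ran from 2488 to 2884 bases.

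QARS, which charges glutamine, had 3 transcripts of 24 exons each, differing in the length of 1 exon of 148, 115 or 99 bases. The 2 coding forms had longest frames of 793 and 782 codons, for which GENCODE annotates 775 and 764. QARS has no mitochondrial counterpart on the list, and mitochondria are known to make their glutaminyl-tRNA from glutamyl-tRNA by an amidotransferase. IARS, for isoleucine, had 2 coding transcripts of 34 exons with 1 coding-sequence tag, and a noncoding transcript of 33 exons that skips a 157-base exon. SARS, for serine, had a coding transcript of 11 exons and 514 codons and a noncoding one of 2 exons, 3181 bases long, whose last exon of 2945 bases is its own. The remaining 11 cytosolic genes had 1 transcript each, among them AARS, EPRS, LARS, VARS and both phenylalanine subunit genes, FARSA and FARSB.

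Among mitochondrial genes, TARS2 (threonine) had 3 coding transcripts with frames of 718, 636 and 588 codons and 2 noncoding ones with 443 and 344. On the chain with the 443-codon frame GENCODE annotates a coding length of only 135 codons. HARS2 (histidine) had 3 coding transcripts of 506, 481 and 362 codons. Its 481-codon form skips a 75-base exon, and its 362-codon form skips exons 4 and 5, has an exon 2 of 175 bases in place of 75, and has its longest frame from base 534 in place of base 224. The 435-codon form of HARS also skips its exons 4 and 5, but its frame begins at base 424 as in the 509-codon form. VARS2 (valine) had 3 coding transcripts of 1093, 1063 and 923 codons in 2 start site groups.

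The other mitochondrial genes with several transcripts had 2 each. NARS2 (asparagine) had frames of 477 and 250 codons, with first exons of 517 and 36 bases. SARS2 (serine) had frames of 520 and 518 codons, from 17 and 16 exons. WARS2 (tryptophan) had frames of 360 and 220 codons, with last exons of 2144 and 2173 bases, and the GT-GG intron leads to the longer last exon. EARS2 (glutamate) had a frame of 523 codons in both transcripts. The longest frame of its noncoding transcript stops 860 bases before the last junction. No other RefSeq transcript or joined model of the 37 genes had a longest frame that stops over 50 bases before its last junction. This measure misses an early stop where a later ATG opens a longer frame. On other noncoding chains GENCODE annotates short coding lengths, of 128 codons in CARS, 71 in IARS and 100 in QARS. It annotates 56 and 131 in TARS and 135 in TARS2. In neither joined model did the longest frame stop over 50 bases before the last junction. In the CARS model, however, that frame begins at base 411, not at base 85 as in the coding transcripts. A frame from base 85 stops after 128 codons, in exon 4 of the 23 exons of that model.

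Counted over the list, 12 of 37 synthetase genes had more than 1 coding-sequence tag (32.4%, exact 95% interval 18 to 49.8%), against 28.2% of all gene names. Only WARS and VARS2 had more than 1 start site group (2 of 37, 5.41%, interval 0.661 to 18.2%), against 15.2%. Both a coding and a noncoding RefSeq transcript were listed for 7 (CARS, EARS2, IARS, QARS, SARS, TARS and TARS2; 18.9%, interval 7.96 to 35.2%), against 8.06% of gene names with a coding transcript. None of the 37 shared a locus with another gene name (upper bound 9.49%), against 4.82%. Each of these background shares lies inside the synthetase interval.

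Of the 72 multi-exon RefSeq transcripts of the synthetase genes, 66 (91.7%) had an intron chain identical to one in GENCODE, against 88.2% of all 43012 multi-exon RefSeq transcripts. The 6 without were 1 each from CARS, HARS, HARS2, NARS2, TARS and TARS2. Chromosome 6 carries VARS and VARS2 in its major histocompatibility region, of which the assembly holds alternative haplotype copies. VARS had 6 further models on 6 of these sequences and VARS2 had 15 on 5, with 0 joined models among them.

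Synthetase genes were rich in exons. Taking the RefSeq transcript with the most exons for each gene, the 37 genes had a median of 17 exons (range 1 to 34), against 7 for multi-exon gene names and 8 for multi-exon coding ones. The list had 32 of 37 genes above the multi-exon median. Their median span was 35363 bases, against 23740 bases for multi-exon gene names and 26194 bases for multi-exon coding ones. IARS had 34 exons, EPRS and LARS 32 each, and VARS and VARS2 30 each, and IARS stood at percentile 97.2 of multi-exon gene names. At the other end MARS2, the mitochondrial methionyl-tRNA synthetase, had 1 exon and PARS2 (proline) had 2, followed by YARS2 (tyrosine) with 5, WARS2 with 6 and FARS2 (phenylalanine) with 7.

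The cytosolic genes had a median of 18.5 exons (11 to 34) and the mitochondrial genes 15 (1 to 30), or 14.5 with TARSL2 left out. The ranges overlap over most of their width, and the 5 genes with fewer than 8 exons were all mitochondrial. Longest frames had a median of 708 codons (471 to 1512) in cytosolic genes and 564 (360 to 1093) in mitochondrial genes. EPRS had the longest frame, 1512 codons. It encodes a fused enzyme for glutamate and proline, whose mitochondrial counterparts EARS2 and PARS2 are separate genes with 10 and 2 exons. The 10 are those of the noncoding EARS2 transcript, and the coding one has 9.

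Size varied more among mitochondrial genes than among cytosolic ones. Gene spans ran from 9198 to 84666 bases in cytosolic genes and from 3087 to 510233 bases in mitochondrial genes. The extremes were MARS2 and FARS2. FARS2 spreads 7 exons and 1841 spliced bases over 510233 bases, and its longest intron of 157970 bases is 31% of that span. QARS fits 24 exons into 9198 bases, the most compact of the cytosolic genes.

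The 8 genes of the multi-synthetase complex (EPRS, IARS, LARS, MARS, QARS, RARS, KARS and DARS) had a median of 22.5 exons (15 to 34) and a median frame of 846 codons. The 11 cytosolic genes outside it had 14 exons (11 to 30) and 548 codons. By catalytic class, the 19 class I genes had a median of 21 exons and 793 codons and the 18 class II genes had 15.5 exons and 534 codons. These medians are of longest frames, and the 793 is that of QARS, for which GENCODE annotates 775. Complex membership and class overlap, since 6 of the 8 complex genes are class I. EPRS, the fused enzyme for glutamate and proline, was counted as class I only, although PARS2, for proline, is class II. Outside the complex the exon medians were close, 15 exons (1 to 30) in 13 class I genes and 15.5 (2 to 22) in 16 class II genes. Those 13 include mitochondrial genes, and the 4 that are not mitochondrial (CARS, VARS, WARS and YARS) had a median of 18 exons (11 to 30). The 6 class I genes of the complex had a median of 28 exons (15 to 34), while its class II genes, DARS and KARS, had 16 and 15.

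For 13 amino acids a cytosolic gene was paired with the mitochondrial gene of the same name followed by 2. TARSL2, the third threonine gene, was left out of these pairs. The cytosolic gene had more exons in 7, the mitochondrial gene in 3 (alanine, arginine and serine), and the numbers were equal in 3 (histidine, asparagine and valine). The cytosolic frame was longer in 11 of 13, by a median difference of 82 codons over all 13. In the 2 exceptions AARS had 968 codons and AARS2 985, and SARS had 514 and SARS2 520. The widest gap in exon number was at methionine, with 21 exons in MARS and 1 in MARS2. WARS had 11 exons and WARS2 6, YARS 13 and YARS2 5.

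**Figure D3:**
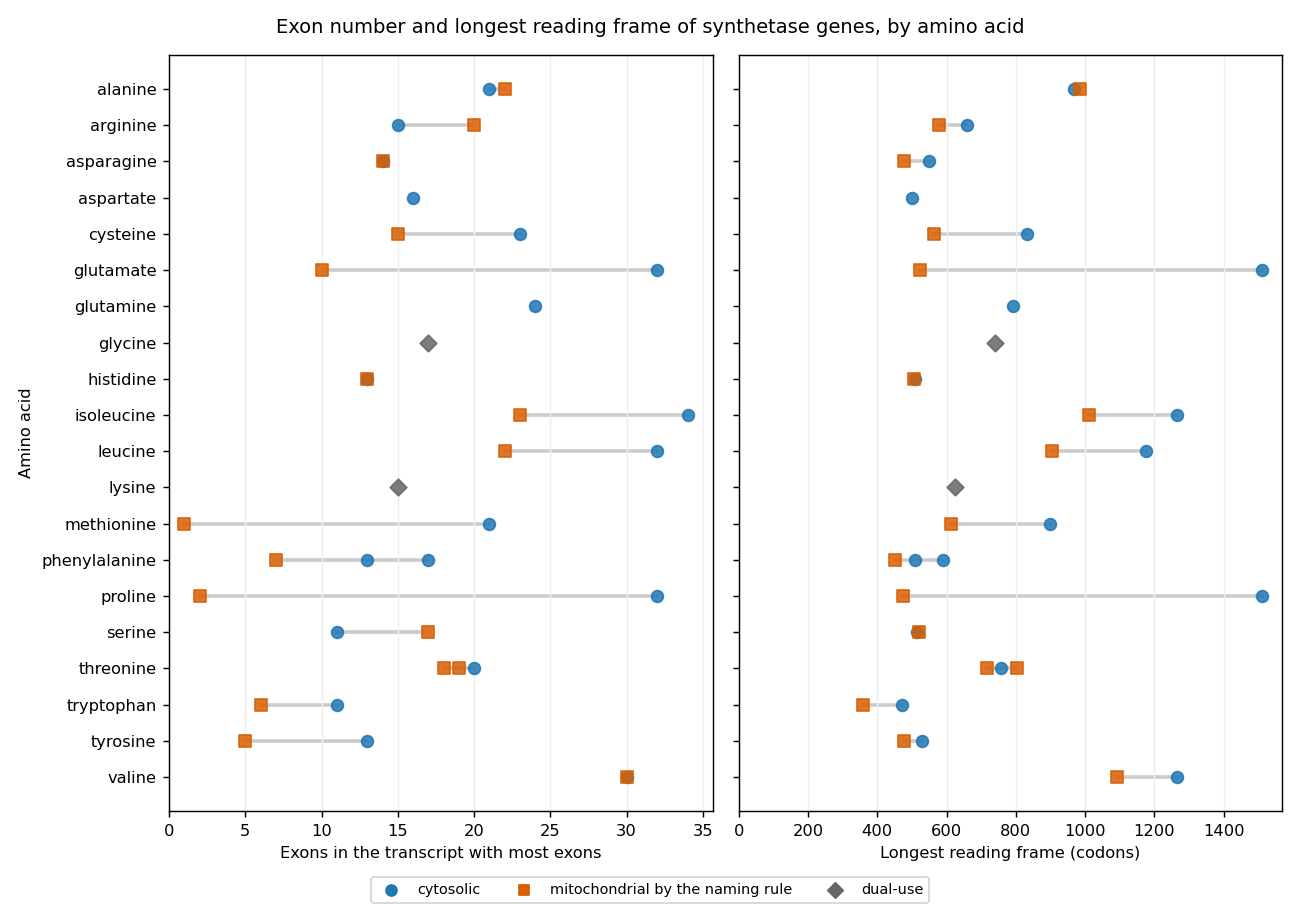
Exon number (left) and longest reading frame in codons (right) for each synthetase gene, arranged by amino acid, with circles for cytosolic, squares for mitochondrial and diamonds for dual-use genes. The widest exon gap among the 13 pairs is at methionine, 21 exons in MARS and 1 in MARS2, and EPRS appears at both glutamate and proline.

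Equal exon numbers did not mean equal exons. Inner exons, those between the first and the last, were compared by length in order. HARS and HARS2 shared 10 of 11 inner exon lengths in 1 unbroken run (90.9%). NARS and NARS2, with 14 exons each, shared 0. VARS and VARS2, with 30 exons each, shared 13 of 28 (46.4%). TARS and TARS2 shared 12 (75%) and AARS and AARS2 7 (36.8%), while the cysteine, isoleucine, leucine and arginine pairs shared 1 to 3 and the serine, tryptophan and tyrosine pairs 0. Among 285 combinations of genes for different amino acids, the median was 1 shared length and the most was 4.

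The 3 threonine genes resembled each other closely. TARS and TARSL2 shared 15 inner exon lengths in 1 run of 15 (88.2%), and TARS2 and TARSL2 shared 13. TARSL2 has 19 exons, a span of 70691 bases and a frame of 802 codons, against 756 codons in TARS and 718 in TARS2. By exon lengths the gene was nearer to the cytosolic TARS than to TARS2, by 2 exons.

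**Figure D4:**
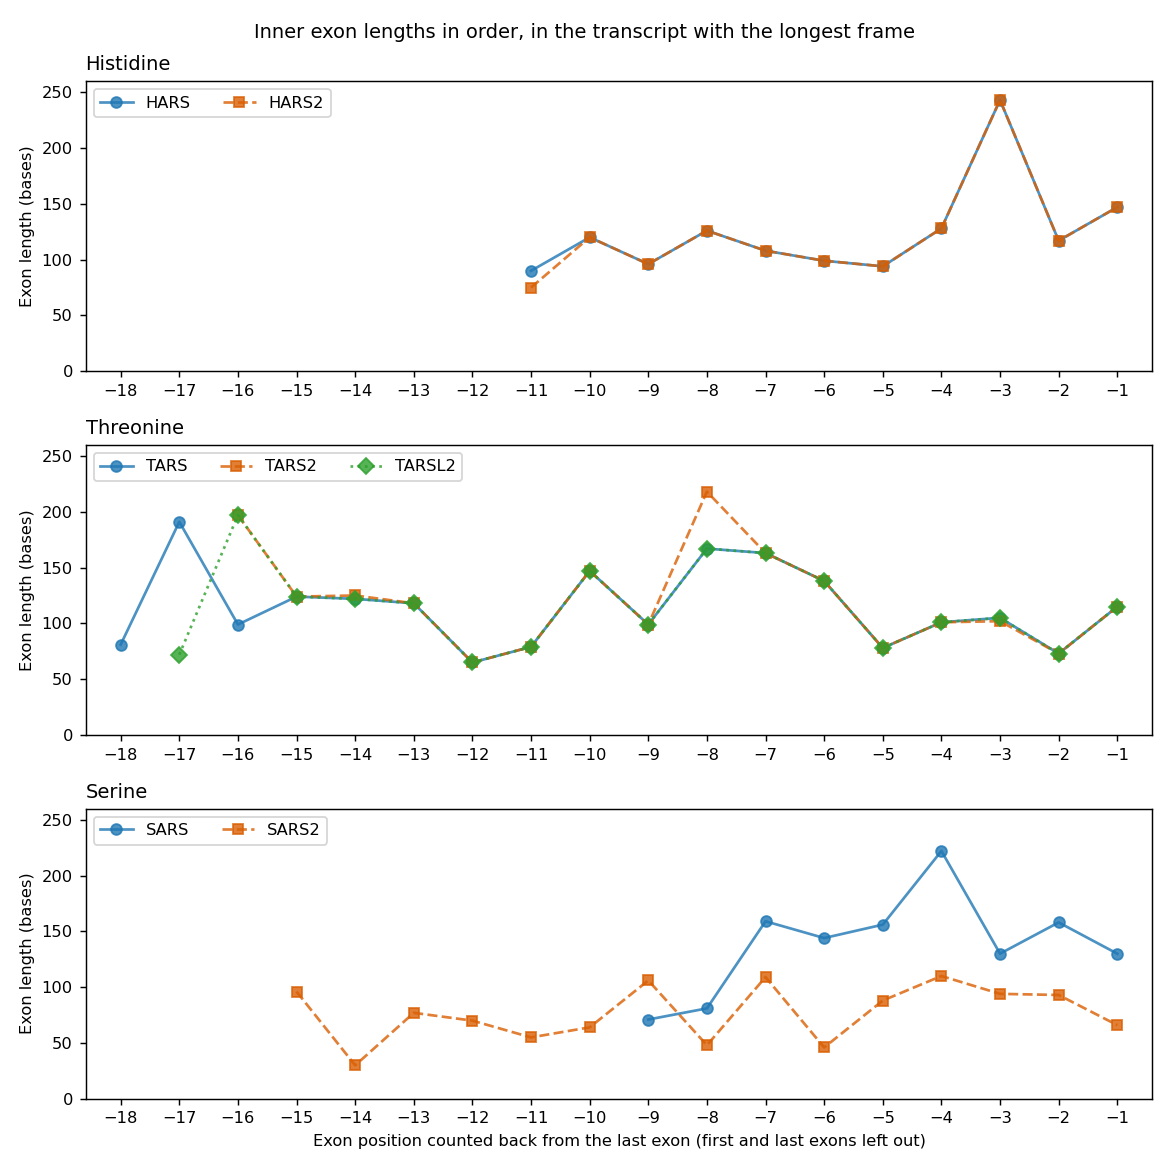
Lengths of inner exons in bases, counted back from the last exon, for histidine, threonine and serine genes. The HARS and HARS2 lines coincide over 10 exons and the TARS and TARSL2 lines over 15, while SARS and SARS2 share no length in order.

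HARS and HARS2 stand next to each other on chromosome 5, on opposite strands. Their exons 3 to 12 have equal lengths, from 94 bases in exon 8 to 243 bases in exon 10. Over these exons 1004 of 1278 bases (78.6%) are identical, from 65.8% in exon 3 to 85.6% in exon 10. Exon 2 is 90 bases in HARS and 75 bases in HARS2. Reads from such similar exons can be hard to place, and how the aligner handled them is not given in the sources used here. Exon 3, the least alike, is printed for both genes with capitals at the bases that differ (GRCh37, chr5:140062685-140062804 on the minus strand and chr5:140073520-140073639 on the plus strand).
HARS exon 3: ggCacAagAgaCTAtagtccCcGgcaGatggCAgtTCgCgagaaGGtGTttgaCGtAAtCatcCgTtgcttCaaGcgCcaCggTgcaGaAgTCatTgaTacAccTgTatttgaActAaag
HARS2 exon 3: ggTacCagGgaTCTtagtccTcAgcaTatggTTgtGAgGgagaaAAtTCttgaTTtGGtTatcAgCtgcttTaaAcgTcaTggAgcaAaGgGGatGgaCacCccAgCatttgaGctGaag

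The synthetase genes had 576 distinct inner exons with a median of 112 bases, against 123 bases over the 180874 distinct inner exons of all gene names. A length divisible by 3 was found in 232 of the 576 (40.3%), against 40% of all inner exons, a share near the background. The shortest were 25 bases in TARS2, 27 in NARS2 and 30 in SARS2, and the longest were 944 in EARS2 and 633 in FARS2. The exons of 25 and 944 bases occur only in noncoding transcripts.

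HARS and HARS2 were also 1 of 10 head-to-head pairs, in which a synthetase gene and a neighbour on the other strand start within 1000 bases and point away from each other. Of the 37 genes, 11 were in such a pair (29.7%, exact 95% interval 15.9 to 47%), against 14.4% of all gene names, and no test was made of that difference. They were 5 cytosolic genes (AARS, DARS, HARS, WARS and YARS), 5 mitochondrial genes (EARS2, FARS2, HARS2, RARS2 and SARS2) and KARS. The distances between starts were 400 bases for FARS2 and LYRM4 (iron-sulfur cluster assembly), 257 for AARS and DDX19B (an RNA helicase of mRNA export), 165 for EARS2 and UBFD1, and 74 for WARS and WDR25. They were 49 for KARS and TERF2IP (a telomere protein) and also 49 for RARS2 and ORC3 (a subunit of the origin recognition complex).

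In the other 4 pairs the genes overlap, so the distance is negative, at -189 bases for SARS2 and MRPS12 (a protein of the mitochondrial ribosome), -302 for HARS and HARS2, -477 for DARS and LOC101928243, and -591 for YARS and S100PBP. The library kit is not stated to keep strand, so reads from such overlaps cannot be assigned to either gene by strand. The sequences between the 3 closest non-overlapping starts are printed, in lower case with no motif marked, to show how little separates the genes (GRCh37, strand of the synthetase gene, chr16:75681586-75681634, chr6:88299736-88299784 and chr14:100842681-100842754).
KARS to TERF2IP: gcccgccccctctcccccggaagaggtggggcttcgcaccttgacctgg
RARS2 to ORC3: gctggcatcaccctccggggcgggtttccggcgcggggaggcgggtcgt
WARS to WDR25: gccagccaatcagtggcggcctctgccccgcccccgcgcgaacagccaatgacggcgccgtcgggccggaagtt

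**Figure D5:**
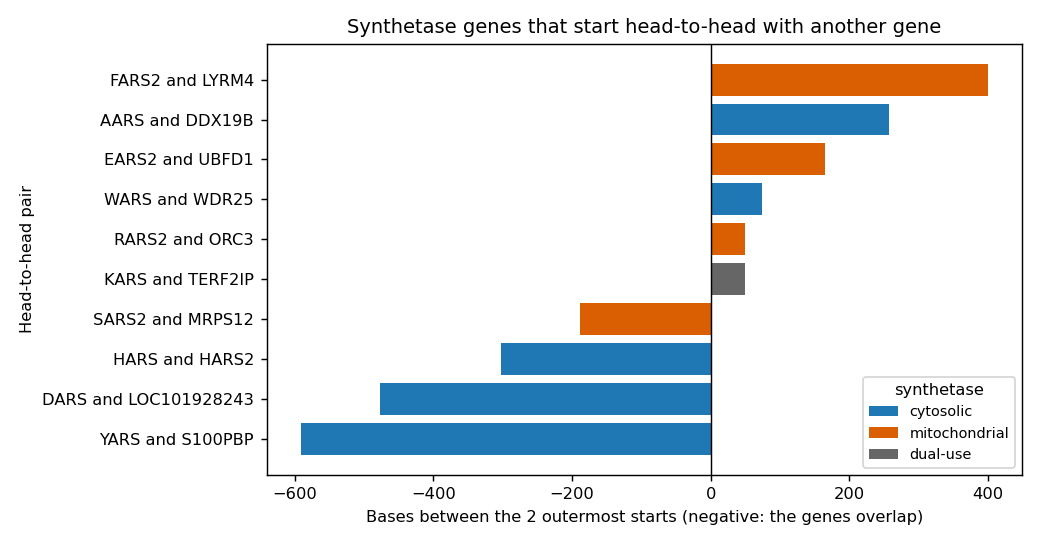
Distance in bases between the starts of each synthetase gene and its head-to-head neighbour, with negative values where the genes overlap. KARS and RARS2 both lie 49 bases from their neighbour, and the HARS bar stands for the pair of HARS (cytosolic) and HARS2 (mitochondrial).

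The 37 genes lie on 15 chromosomes, with 7 on chromosome 1 and 5 each on chromosomes 5 and 6. EPRS and IARS2 lie 47454 bases apart on chromosome 1.

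The sequence TGATGNAA, the C/EBP-ATF response element through which ATF4 acts, was searched on both strands of RefSeq promoter windows (GRCh38.p14, 250 bases before to 50 after the start), which were found for 30 of the 37 genes. It was present in 8 of 30 (26.7%, exact 95% interval 12.3 to 45.9%), against 4.46% of the 27305 genes with a window. Among the 15843 protein-coding genes with a window the share was 3.6%. The 8 genes were the cytosolic AARS, CARS, IARS, MARS, NARS and TARS, the mitochondrial YARS2, and GARS. Relative to the start, the match began at -187 in AARS, at -33 in GARS, at -13 in IARS, at -4 in MARS, at -2 in CARS, at 2 in TARS, at 14 in NARS and at -197 in YARS2. In CARS, GARS, IARS, MARS, NARS and TARS the match sits within 50 bases of the start. No window was given for AARS2, DARS, LARS, TARSL2, VARS, VARS2 and YARS.

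The count was lower in a second set of windows, which differed in start position, genome build and the number of genes covered. With windows drawn at the starts in the deposited file on GRCh37, 5 of 37 genes held the motif (13.5%), against 3.82% of 25086 gene names. Among the 19092 gene names with a coding transcript the share was 3.54%. The 5 synthetase genes were AARS, CARS, FARS2, WARS and YARS2, so AARS, CARS and YARS2 held it in both searches. In WARS it lies 23 bases before the downstream start, the start of the 308-base first exon, and the window at the upstream start has none. The AARS and WARS windows are printed with the match in capitals, which in AARS reads on the other strand (GRCh37, minus strand, chr16:70323413-70323662 and chr14:100841928-100842177). A match is a description of the letters and does not show that a factor binds there.
AARS upstream: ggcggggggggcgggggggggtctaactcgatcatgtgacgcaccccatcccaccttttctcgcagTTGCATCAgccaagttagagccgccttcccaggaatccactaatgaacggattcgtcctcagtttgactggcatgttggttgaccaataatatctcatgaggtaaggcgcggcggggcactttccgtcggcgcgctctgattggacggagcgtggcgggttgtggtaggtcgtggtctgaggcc
WARS upstream of the start at 100841927: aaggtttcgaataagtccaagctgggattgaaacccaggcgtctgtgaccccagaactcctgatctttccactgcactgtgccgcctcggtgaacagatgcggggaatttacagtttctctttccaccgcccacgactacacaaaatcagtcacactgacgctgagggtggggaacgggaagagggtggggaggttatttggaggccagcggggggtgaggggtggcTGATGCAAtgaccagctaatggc

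Other genes that act on charged tRNA were described from a list of 15. They are the scaffolds of the multi-synthetase complex (AIMP1, AIMP2 and EEF1E1), the mitochondrial glutaminyl-tRNA amidotransferase (QRSL1, PET112 and GATC), MTFMT, which formylates the initiator methionyl-tRNA, PSTK and SEPSECS, which make selenocysteinyl-tRNA, the editing proteins DTD1, DTD2 and AARSD1, and the elongation factors EEF1A1, EEF1A2 and TUFM. These genes had a median of 8 exons (3 to 13), against 17 in the synthetase genes. They had 19 RefSeq transcripts in all. Of the 15 genes, 12 had 1 transcript (80%, exact 95% interval 51.9 to 95.7%), against 62.8% of all gene names. None had a joined model (upper bound 21.8%), against 12.4% of multi-exon gene names. Both background shares lie inside the interval. AIMP1 had the most transcripts, with 3, and PET112 the most exons, with 13.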

How the data were processed

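RNA from 3 INS-KD and 3 Negative Control libraries of EndoC-βH1 cells was made into full-length cDNA with a template-switching kit and into libraries with a transposase kit, per the labels' protocols. Per the submitters' processing notes, the tools were TopHat2 and Cufflinks and the build was hg19, with no version given. The deposited file is 1 merged assembly of 555595 exon lines, with 1-based start and end positions and tags. The score column holds 0 numbers, so depth is unknown and no expression test, replicate spread or library left out could be computed. The number of columns with values per library was 0.

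Models were rebuilt in Python 3.11.15 (numpy 2.4.6, scipy 1.17.1, pysam 0.24.0, matplotlib 3.10.9). The longest frame from ATG to a stop was read on the spliced GRCh37 sequence. Its codon number leaves out the stop. A chain was taken as present in GENCODE (version 44, lifted to GRCh37) where every intron was identical. Intervals are exact Clopper-Pearson 95% intervals and cover counting error only. Genes are not replicates, and no test was made. Sharing of inner exon lengths is the longest common run of equal lengths in order, gaps allowed. The functions were tested on simulated data. Full detail was given to genes with joined models, the dual-use genes, QARS, TARSL2, the extremes of exon number, HARS and HARS2, and head-to-head genes. All genes of the list could be named. The genes and lists were chosen with earlier results of these data known. RefSeq supplied the promoter windows. Protein sequences were not used here.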

Additional observations from a re-analysis of the deposited data

How the results depend on the processing

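For 13 results, 31 alternative values were computed, and 28 stayed within 1.5 times the value reported. The 3 that moved were the share of all gene names with a joined model, which was 27.8% among names with at least 2 reference transcripts in place of 12.4%, and the number of synthetase promoters with TGATGNAA, which was 4 of 30 in the 250 bases before the start alone (against 3.89% of all genes) and 5 of 37 in windows at the starts of the deposited file (against 3.82%), in place of 8 of 30. The last alternative was added after seeing the data. The shorter window leaves out the 50 bases after the start, and the other windows differ in start position, build and genes covered, which were not tested apart. The median exon number was 17 to 19 in cytosolic and 14.5 to 15 in mitochondrial genes. No paired analysis was possible because the file carries no value per library, and leaving out a replicate could not be run for the same reason. A model absent from 1 merged assembly is not shown to be absent from the cells, and no value separates INS-KD from Negative Control.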
